A study of Mus musculus with 24 samples.

Results

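The liver genotype by time interaction asks whether the daily change of a transcript differs between mice with human PER1 S714G and mice with human PER1 S714. For each gene it is the change from ZT1 to ZT13 in S714G liver minus the same change in control liver, on a log2 scale. It was taken from all 12 liver arrays of the 24 in the series, in 4 groups of 3. A gene here counts as reversed when the interaction and both daily changes passed an adjusted p of 0.05 with opposite signs. It counts as flattened when the interaction and the control change passed while the S714G change did not and was smaller, and as gained in the converse case. It counts as kept when both daily changes passed in the same direction and the interaction did not. Levels were read at ZT1 and ZT13 only. A shift of a daily rhythm in time and a loss or gain of its size therefore cannot be told apart in any class.

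Males of 2 months with a C57BL/6 strain background were used, and both genotypes carried human PER1 (hPER1), the controls with S714 and the mutants with S714G, in which a serine is replaced by glycine. They had lived in light-dark cycles for 10 days when liver was taken at ZT1 or ZT13, hours counted from lights on (1 and 13 hours after it). How the human gene is driven, whether the mouse Per1 gene remained and how many animals gave each sample are not given in the sources used here, so the p-values measure the spread between these samples, which may be partly technical. Total RNA was labelled with Cy3 and hybridised to Agilent mouse arrays, 1 sample per array.

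The arrays lay on 3 slides of 8, and slide moves with group. All 3 liver control ZT1 arrays lay on slide 1. The 3 S714G ZT1 arrays and control ZT13 replicate 1 lay on slide 2. Control ZT13 replicates 2 and 3 and the 3 S714G ZT13 arrays lay on slide 3. Slide and group cannot be told apart in liver alone. Most named interactions that passed are therefore also given from all 24 arrays, adipose tissue included, with slide as a block. The slide steps of that fit rest on adipose S714G ZT1 replicate 3 against replicates 1 and 2, and on liver control ZT13 replicate 1 against replicates 2 and 3. The fit takes the same slide steps for both tissues, which was not tested. With it the median interaction of 12 hepatocyte markers went from 0.43 to 2.23, and over all genes from 0.22 to -0.15. None of these markers passed in either fit. A value that missed the threshold with the block is therefore not read as no interaction. The difference between genotypes at ZT13 can be read within slide 3 alone. The 75th percentile of the signal was 404.8 to 729.1 intensity units on the control ZT1 arrays, 857.6 to 1104.6 on the other 9 liver arrays and 733.3 to 1398.5 on the 5 adipose arrays of slide 1, and 45.5% to 60.2% of the liver spots were well above background. The part of slide or of this signal difference in the results without the block was not tested beyond that fit.

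The tissue label matched its markers. The summed linear level of 12 hepatocyte markers, each relative to its array's 75th percentile, was 1351 to 2490 in the 4 groups, against 9.45 to 16.1 for 8 adipocyte markers. The RNA is of whole tissue, so fewer cells of a type and less RNA per cell cannot be told apart.

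The circadian clock of liver cells is a feedback loop. CLOCK and BMAL1 (the product of Arntl), or NPAS2 in place of CLOCK, bind E-boxes and switch on the Per, Cry, Nr1d1, Nr1d2, Ciart and Dbp genes. PER and CRY proteins return to repress CLOCK and BMAL1, REV-ERB proteins (Nr1d1, Nr1d2) repress and ROR proteins activate Arntl and other genes at ROR elements, and the PAR bZIP factors DBP, TEF and HLF compete with NFIL3 at D-boxes. The loop sets daily rhythms of many genes of lipid, glucose and bile acid metabolism.

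Promoter windows of 4 clock repressors are shown because their daily change took different forms here and their windows hold a match to a clock motif. Each is the 250 bases before the start of the gene in RefSeq (GRCm38.p6), in lower case with motif matches in capitals. The motifs searched on both strands were the E-box CACGTG, the D-boxes TTATGTAA and TTACGTAA, and the ROR element. Ciart (chr3:95882229-95882478, minus strand) was reversed and holds 3 E-boxes that begin at -116, -58 and -44 from the start. Per3 (chr4:151044666-151044915, minus strand) was reversed and holds 2 D-boxes at -205 and -158. Per1 (chr11:69098699-69098948, plus strand) was flattened and holds an E-box at -166, while its other RefSeq window holds no match. Cry1 (chr10:85185055-85185304, minus strand) gained a daily change and holds an E-box at -60.
Ciart: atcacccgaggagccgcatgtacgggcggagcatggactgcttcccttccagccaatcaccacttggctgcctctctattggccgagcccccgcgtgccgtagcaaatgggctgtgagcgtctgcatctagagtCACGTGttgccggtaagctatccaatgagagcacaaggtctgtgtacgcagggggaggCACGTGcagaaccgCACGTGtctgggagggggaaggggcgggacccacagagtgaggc
Per3: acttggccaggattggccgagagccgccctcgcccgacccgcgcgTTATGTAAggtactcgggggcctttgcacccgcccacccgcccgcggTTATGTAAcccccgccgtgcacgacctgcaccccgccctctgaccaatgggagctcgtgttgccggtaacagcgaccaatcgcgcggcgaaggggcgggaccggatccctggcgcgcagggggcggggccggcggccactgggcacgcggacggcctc
Per1: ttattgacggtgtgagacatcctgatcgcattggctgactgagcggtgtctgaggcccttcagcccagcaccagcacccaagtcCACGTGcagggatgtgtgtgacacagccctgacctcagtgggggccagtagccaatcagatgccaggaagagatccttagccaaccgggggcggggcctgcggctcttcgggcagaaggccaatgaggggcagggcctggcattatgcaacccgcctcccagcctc
Cry1: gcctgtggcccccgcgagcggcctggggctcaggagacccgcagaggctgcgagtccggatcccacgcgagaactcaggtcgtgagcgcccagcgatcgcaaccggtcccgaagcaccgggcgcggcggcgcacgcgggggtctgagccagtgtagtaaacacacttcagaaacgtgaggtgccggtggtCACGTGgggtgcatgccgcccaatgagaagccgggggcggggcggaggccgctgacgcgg

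In S714G liver many core clock genes changed from ZT1 to ZT13 in the direction opposite to control, and most genes with a daily change in control liver had none that passed. Of 21844 genes tested, 6975 (31.9%) passed in the interaction, 4316 above 0 (19.8%) and 2659 below 0 (12.2%). A daily change passed for 11420 genes in control liver (52.3%), of which 4308 were higher and 7112 lower at ZT13, and for 440 genes in S714G liver (2.01%), 212 higher and 228 lower. Both passed for 277 genes, 157 in the same direction. Among the classes, 6248 genes (28.6%) were flattened, 120 (0.549%) reversed, 127 (0.581%) gained, 22 (0.101%) changed in the same direction with another size, and 135 (0.618%) were kept. Across all genes the control and S714G daily changes had a Pearson correlation of 0.085, a description over genes, which are not independent. With slide as a block, 295 genes passed in the interaction (1.35%), 124 above and 171 below 0, and 250 of them passed with the same sign without the block. These 250 are 3.58% of the genes called without the block and 84.7% of those called with it. The median standard error rose from 0.31 to 0.53. With the block, daily changes passed for 162 genes in control liver and 70 in S714G liver.

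**Figure D1:**
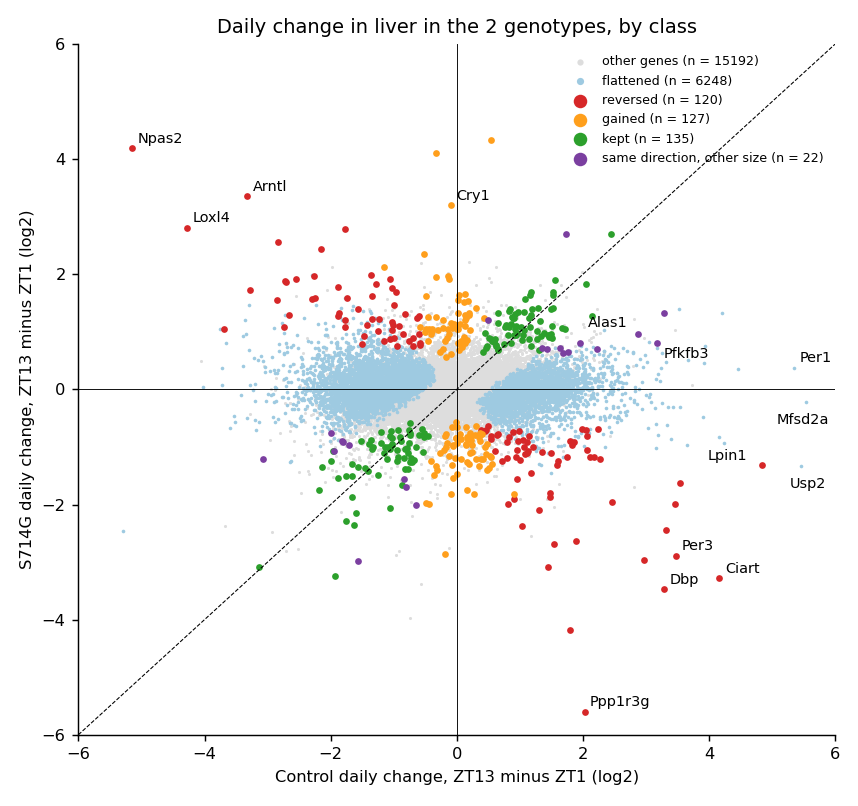
Each point is a gene, with the control daily change (ZT13 minus ZT1, log2) on the x axis and the S714G daily change on the y axis, coloured by class, and the dashed line marks equal changes. The 120 reversed genes lie in the upper left and lower right, and the 6248 flattened genes spread along the x axis, with a median size of 1.23 in control and 0.19 in S714G, although 559 of them have an S714G change at least 0.5 times the size of the control change.

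The share of called genes above 0 depends on how arrays were scaled. It was 61.9% as scaled here, 50.5% after quantile normalization, 70.7% with the percentile over detected probes, 68.1% after normexp background correction and 42.0% with the slide block. The median interaction over all genes was 0.22, with a median change of -0.21 in control and 0.03 in S714G liver, and it was 0.08 after quantile normalization, 0.34 with the percentile over detected probes and -0.15 with the slide block. The values below are not adjusted for these shifts. The 440 genes called in S714G liver depended on single arrays. Leaving out control ZT1 replicate 1 gave 914, while leaving out S714G ZT1 replicate 1, 2 or 3 gave 120, 105 or 140 and S714G ZT13 replicate 1, 2 or 3 gave 144, 147 or 96. Leaving out S714G ZT13 replicate 1 lowered the positive interactions to 2876.

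Of 29 clock genes measured, 16 passed in the interaction, beside 31.9% of all genes. With the slide block 12 of the 29 passed, beside 1.35% of all genes, and all 12 were among the 16. The reversed clock genes were Arntl, Clock, Npas2, Per3, Ciart, Nr1d2, Dbp, Tef and Nfil3. Arntl2, Per1, Per2, Bhlhe40 and Usp2 were flattened, Cry1 was gained, Fbxl21 passed in the interaction alone, and Csnk1e was among the kept genes. The sign of the interaction held under every alternative run for each of the 16 but Fbxl21, which was 0.029 with the slide block. Reversed genes were 9 of 29 clock genes and 0.549% of all genes. For Npas2, Per3 and Ciart the calls use fitted values from groups not well above background on any array, so these are given below as bounds.

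**Figure D2:**
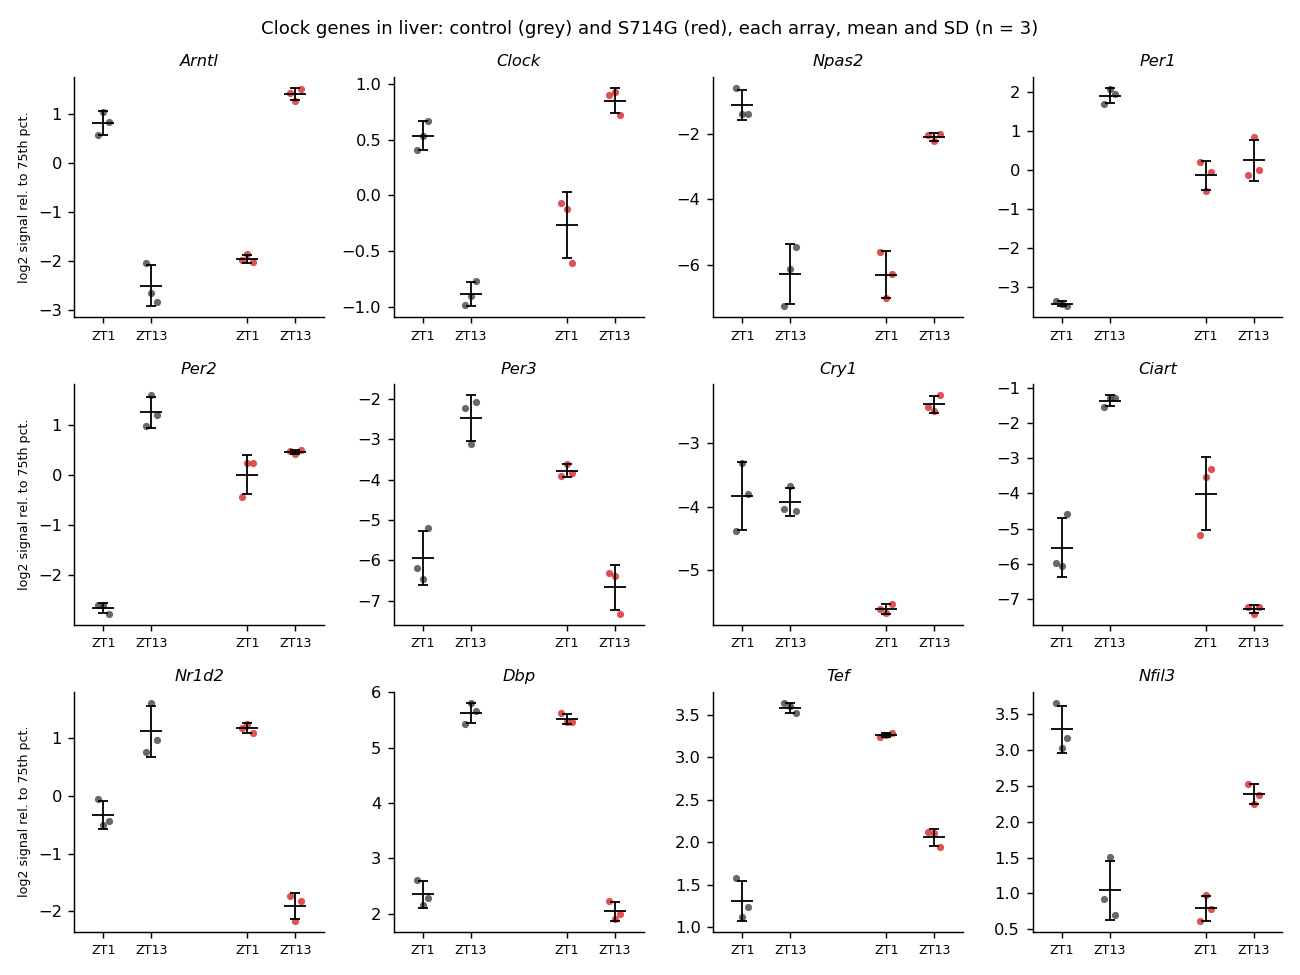
Each panel shows a clock gene's log2 signal relative to the array's 75th percentile on every liver array (points), with the mean and SD of 3 arrays, for control (grey) and S714G (red) at ZT1 and ZT13. For Arntl, Clock, Npas2, Per3, Ciart, Nr1d2, Dbp, Tef and Nfil3 the higher time point in control is the lower in S714G.

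Arntl, Clock and Npas2, activators of the loop, were higher at ZT1 in control liver and higher at ZT13 in S714G liver. Arntl (probe at chr7:120457261-120457320, mm9) read 0.57, 1.05 and 0.84 in control at ZT1 and -2.03, -2.64 and -2.83 at ZT13, and -1.96, -1.86 and -2.02 in S714G at ZT1 and 1.43, 1.27 and 1.52 at ZT13, as log2 signal relative to the array's 75th percentile, the scale of all levels below. No array of ZT1 overlapped those of ZT13 in either genotype. The control change was -3.32 and the S714G change 3.35, which gives an interaction of 6.68 (SE 0.29, adjusted p = 5.37e-07, limma) and 7.57 with the slide block (adjusted p = 1.12e-07). Within slide 3, S714G exceeded control at ZT13 by 4.15 (adjusted p = 0.0014). Clock, the partner of BMAL1, read 0.40, 0.54 and 0.67 in control at ZT1 and -0.99, -0.90 and -0.77 at ZT13, against -0.07, -0.12 and -0.61 and then 0.90, 0.93 and 0.72 in S714G. Its interaction was 2.54 (SE 0.24, adjusted p = 8.18e-05) and 2.95 with the block.

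Npas2, which can stand in for CLOCK, was reversed. It read -0.61, -1.41 and -1.40 in control at ZT1 and -2.05, -2.23 and -2.02 in S714G at ZT13, and was not well above background on any array of the other groups. Those groups therefore give a bound, set per array from the lowest signal well above background or the probe's own signal where that was higher. The S714G change relative to the control change was at least 48.4-fold higher (fitted 9.34, adjusted p = 9.61e-06), from a control fall of at least 10.7-fold and an S714G rise of at least 4.53-fold. With the block the fitted value was 7.52. Arntl2, a paralogue of Arntl, fell by 1.07 in control and had a change of -0.09 in S714G, and its interaction of 0.99 (adjusted p = 0.029) was 0.08 with the block and missed the threshold in 12 of 25 alternatives. Rora had an interaction of -0.40 (adjusted p = 0.43).

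The Per genes, core repressors, rose from ZT1 to ZT13 in control liver, while in S714G liver Per3 fell and the changes of Per1 and Per2 did not pass. Per1 read -3.36, -3.44 and -3.51 in control at ZT1 and 1.69, 2.07 and 1.96 at ZT13, against 0.20, -0.55 and -0.07 and then -0.13, 0.85 and 0.01 in S714G. The control groups did not overlap and the S714G groups did. The interaction was -4.97 (SE 0.37, adjusted p = 1.86e-05) and -5.18 with the block. The probe was well above background on 2 of 3 control ZT1 arrays. A dimmer Per1 probe gave 1.05 (adjusted p = 0.277), so the 2 probes disagree in sign, and whether either probe reads the human transcript was not tested. Per2 rose from -2.60, -2.61 and -2.78 to 0.97, 1.59 and 1.20 in control, and read -0.45, 0.23 and 0.23 and then 0.48, 0.42 and 0.49 in S714G. Its interaction was -3.46 (adjusted p = 4.48e-05) and -2.84 with the block.

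Per3 was reversed. It read -2.23, -3.12 and -2.07 in control at ZT13 and -3.92, -3.60 and -3.83 in S714G at ZT1, and was not well above background in the other groups. The probe was well above background on 2 of 3 S714G ZT1 arrays. The interaction was at least 5.83-fold lower (fitted -6.36, adjusted p = 4.22e-05, -4.69 with the block), from a control rise of at least 2.4-fold and an S714G fall of at least 2.43-fold. Ciart, a repressor of CLOCK and BMAL1 whose promoter is printed above, was also reversed. It read -1.55, -1.29 and -1.28 in control at ZT13 and -5.19, -3.53 and -3.30 in S714G at ZT1, where 2 of 3 arrays were well above background, and no array of the other groups was. The interaction was at least 10.7-fold lower (fitted -7.44, adjusted p = 6.48e-05, -7.41 with the block).

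Cry1, a core repressor that acts late in the cycle, gained a daily change. Control read -4.37, -3.31 and -3.81 at ZT1 and -4.03, -3.67 and -4.07 at ZT13, which overlap, with 1 of 3 arrays well above background at ZT1. S714G read -2.44, -2.50 and -2.25 at ZT13 and was not well above background at ZT1. The S714G rise was at least 3.69-fold and the interaction at least 3.94-fold higher (fitted 3.30, adjusted p = 1.25e-04, 5.33 with the block). Cry2 had an interaction of -0.91 (adjusted p = 0.065), with 23 of 25 alternatives also above the threshold. Bhlhe40, which encodes an E-box repressor, rose by 3.91 in control and changed by -0.47 in S714G. Its interaction of -4.38 (adjusted p = 1.98e-04) was -2.69 with the block (adjusted p = 0.27). Bhlhe41 had 0.40 (adjusted p = 0.53).

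Of the REV-ERB genes, Nr1d2 was reversed and Nr1d1 did not pass. Nr1d2 read -0.05, -0.50 and -0.43 in control at ZT1 and 0.76, 1.62 and 0.97 at ZT13, and 1.19, 1.26 and 1.10 and then -1.74, -2.16 and -1.82 in S714G. The interaction was -4.53 (SE 0.31, adjusted p = 1.31e-05) and -5.11 with the block. The array design places this probe on chr19 (40271435-40271494, mm9), another chromosome than RefSeq gives the gene, and a dimmer Nr1d2 probe gave -6.75. Nr1d1 read -0.60 to 0.03 in control at ZT1 and -0.49 to -0.02 at ZT13, and its interaction was -0.72 (adjusted p = 0.079).

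Of the D-box factors, Dbp, Tef and Nfil3 were reversed. Dbp (probe at chr7:52965461-52965520, mm9), an activator at D-boxes, read 2.62, 2.15 and 2.28 in control at ZT1 and 5.44, 5.80 and 5.66 at ZT13, and 5.63, 5.47 and 5.46 and then 2.24, 1.90 and 1.98 in S714G. The control ZT13 and S714G ZT1 arrays overlapped, as did the control ZT1 and S714G ZT13 arrays. The interaction was -6.76 (SE 0.24, adjusted p = 1.33e-07), -7.98 with the block, and a dimmer probe gave -9.16. Tef, its relative, went from 1.57, 1.12 and 1.24 to 3.63, 3.60 and 3.52 in control and from 3.23, 3.27 and 3.28 to 2.12, 2.11 and 1.94 in S714G, an interaction of -3.47 (adjusted p = 4.46e-06; -3.49 with the block). Nfil3, the repressor at the same sites, moved the other way, from 3.66, 3.03 and 3.18 to 0.92, 1.5 and 0.70 in control and from 0.62, 0.97 and 0.79 to 2.53, 2.25 and 2.38 in S714G. Its interaction was 3.84 (adjusted p = 4.13e-05) and 2.80 with the block (adjusted p = 0.063). Hlf had -0.99 (adjusted p = 0.067).

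Among 9 clock modifiers, 2 passed (22.2%, beside 31.9% of all genes). Both were below 0, as were 12.2% of all genes, and Usp2 alone passed with the slide block. Usp2, a deubiquitinase under clock control, rose from -1.45, -2.74 and -2.70 to 3.02, 3.24 and 3.21 in control and read 0.80, 0.98 and 1.35 and then -0.14, 0.01 and -0.74 in S714G. The S714G arrays of ZT1 and ZT13 did not overlap, but the S714G change of -1.33 did not pass (adjusted p = 0.064, limma). The Usp2 interaction was -6.79 (SE 0.46, adjusted p = 9.75e-06) and -7.25 with the block. Fbxl21, an F-box protein that acts on CRY, had -1.02 (adjusted p = 0.011) and 0.03 with the block. Csnk1e, a PER kinase, fell in both genotypes, by 0.56 and by 0.69, with an interaction of -0.13 (95% interval -0.61 to 0.35). Its other probe gave 1.05 (adjusted p = 0.035). Csnk1d, Btrc, Fbxw11, Timeless and Gsk3b did not pass, with interactions between -0.40 and 0.43. A dimmer Gsk3b probe gave -1.25 (adjusted p = 0.035).

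Beyond the clock, Lpin1, Loxl4, Dnmt3b and Spon2 were among the reversed genes with the largest interactions. Lpin1, a phosphatidate phosphatase of triglyceride synthesis, read 0.14, -0.53 and 0.11 in control at ZT1 and 4.33, 4.93 and 4.96 at ZT13, and 2.23, 1.96 and 2.26 and then 0.99, 0.81 and 0.71 in S714G. The interaction was -6.15 (SE 0.31, adjusted p = 1.96e-06) and -6.14 with the block. Its relative Lpin2 had -3.35 and -2.41 with the block (adjusted p = 0.077), but a dimmer Lpin2 probe, well above background on all 12 arrays, gave -0.47 (adjusted p = 0.39), with changes of -0.20 in control and -0.67 in S714G, so the 2 probes disagree. Loxl4, a lysyl oxidase of the extracellular matrix, fell from 1.62, 0.39 and 0.68 to -3.13, -3.85 and -3.16 in control and rose from -2.39, -2.70 and -2.75 to 0.19, 0.33 and 0.06 in S714G. Its interaction was 7.08 (adjusted p = 4.46e-06) and 7.18 with the block, and 2 of 3 control ZT13 arrays were well above background.

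Dnmt3b, a DNA methyltransferase, had 4.59 and 4.42 with the block, from a control change of -2.15 and an S714G change of 2.44. Spon2, a secreted matrix protein, fell by 3.70 in control and rose by 1.04 in S714G, an interaction of 4.74 (4.38 with the block). Rgs16, a regulator of G protein signalling, and Gnat1, a G protein alpha subunit, had -5.96 and -5.94, and -8.48 and -6.54 with the block. Gpcpd1, a glycerophosphodiesterase, had -5.76, and -5.75 with the block. At control ZT1 the probe was well above background on 2 of 3 arrays for Gnat1 and on 1 of 3 for Gpcpd1.

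Ppp1r3g, Elovl3 and Tmem171, also reversed, did not pass with the block. Ppp1r3g, a glycogen-targeting subunit of protein phosphatase 1, had an interaction of -7.63 (SE 0.91, adjusted p = 3.53e-04). It read -2.19, -2.11 and -1.80 in control at ZT1 and -1.39, 1.90 and -0.53 at ZT13, with a wide spread, and 1.11, 0.17 and 1.08 and then -5.32, -4.45 and -4.69 in S714G, with 1 of 3 arrays well above background at the end. Its value with the block was -6.47 (SE 2.02, adjusted p = 0.15). Elovl3, an elongase of very long fatty acids, had 4.58, and 4.46 with the block (adjusted p = 0.15). Tmem171 had an interaction at least 2.76-fold higher (fitted 4.61), and 3.25 with the block (adjusted p = 0.054). Tubb2a-ps2 is listed as a pseudogene, so its interaction of 5.01 cannot be separated from a near copy, Tubb2a.

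**Figure D3:**
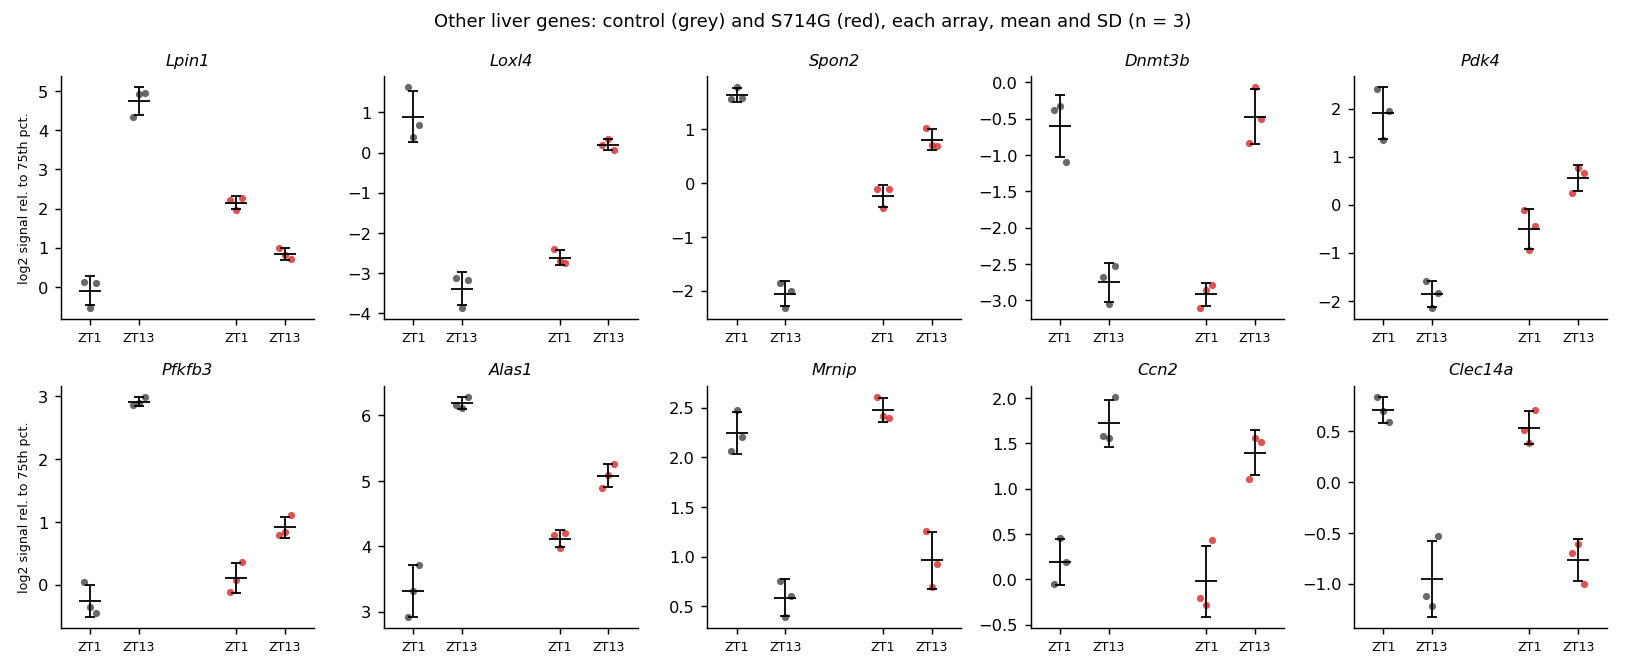
Each panel shows a gene's log2 signal relative to the array's 75th percentile on every liver array (points), with the mean and SD of 3 arrays, for control (grey) and S714G (red). Lpin1, Loxl4, Spon2 and Dnmt3b are reversed between genotypes, Pdk4 is flattened, Pfkfb3 and Alas1 rise less in S714G, and Mrnip, Ccn2 and Clec14a are kept.

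Over all 120 reversed genes, 65 were higher and 55 lower at ZT13 in control liver. The median size of the change was 1.34 in control and 1.20 in S714G. Every one of the 120 kept the sign of its interaction in the fit with the slide block, and 54 passed there. The class itself needs 3 calls, and 8 of the 120 met all of them with the block. Leaving out control ZT1 replicate 1 or 2 gave 213 or 193 reversed genes, S714G ZT1 replicate 1, 2 or 3 gave 49, 43 or 49, and S714G ZT13 replicate 1, 2 or 3 gave 49, 57 or 37.

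Flattened genes were the largest class. Of 6248, 2327 were higher and 3921 lower at ZT13 in control, with a median size of 1.23 in control and 0.19 in S714G. The S714G estimate had the opposite sign in 3795. With the block 4138 kept the sign of the interaction and 154 passed. Mfsd2a, a transporter of lysophosphatidylcholine, rose from -0.69, -1.91 and -1.23 to 4.01, 4.28 and 4.46 in control and read 1.13, 0.09 and 1.13 and then -0.07, 0.78 and 0.99 in S714G. Its interaction was -5.75 (adjusted p = 8.14e-05) and -6.42 with the block (adjusted p = 0.022). Pdk4, the kinase that shuts pyruvate dehydrogenase, fell from 2.41, 1.35 and 1.96 to -1.59, -2.14 and -1.83 in control, and read -0.11, -0.95 and -0.45 and then 0.25, 0.76 and 0.66 in S714G. The S714G arrays of ZT1 and ZT13 did not overlap, but the S714G change of 1.06 did not pass (adjusted p = 0.098, limma). The Pdk4 interaction was 4.82 (4.13 with the block). Mycl, a MYC family factor, had an interaction at least 23.9-fold lower (fitted -5.17), but -1.83 with the block (adjusted p = 0.79). Egr1, an immediate early factor, fell by 5.30 in control and had a change of -2.46 in S714G (adjusted p = 0.071); its interaction of 2.83 was 1.80 with the block, and 1 of 3 control ZT13 arrays was well above background.

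A change between ZT1 and ZT13 that passed in S714G alone was rarer. The 127 gained genes had a median size of 0.19 in control and 1.07 in S714G, and 120 kept the sign with the block while 20 passed. Besides Cry1, Bmf, a pro-apoptotic BCL2 family member, read -0.50, -0.21 and 0.27 and then 0.00, -0.18 and -0.84 in control, against 1.10, 0.92 and 0.69 and then -1.82, -2.04 and -2.0 in S714G, an interaction of -2.66 (adjusted p = 5.37e-04) and -3.50 with the block. Nat8f6, an acetyltransferase family member, had 2.87 and 3.52 with the block (adjusted p = 0.046). Bhlha15 and Srgap3 had 3.77 and 3.29, and adjusted p = 0.10 and 0.076 with the block. Leaving out control ZT1 replicate 1 gave 259 gained genes, and leaving out S714G ZT1 replicate 1, 2 or 3 gave 30, 23 or 34 and S714G ZT13 replicate 1, 2 or 3 gave 37, 32 or 22.

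In 22 genes both genotypes changed in the same direction by different amounts. Pfkfb3, which makes the activator of phosphofructokinase, rose from 0.04, -0.36 and -0.44 to 2.86, 2.90 and 3.0 in control and from -0.11, 0.08 and 0.36 to 0.79, 0.85 and 1.10 in S714G, by 3.17 against 0.80. The interaction was -2.37 (adjusted p = 1.61e-04) and -2.94 with the block. Alas1, whose product makes the first committed step of haem synthesis, rose from 2.92, 3.32 and 3.71 to 6.16, 6.12 and 6.29 in control and from 4.18, 3.98 and 4.20 to 4.90, 5.09 and 5.26 in S714G, by 2.87 against 0.96, with -1.91 and -2.40 with the block. Rnu2-10 fell by 3.08 against 1.20, and its interaction of 1.87 was 3.84 with the block. Gmpr and Ocln had 1.24 and 0.75, and 0.73 and 0.60 with the block, where neither passed. Leaving out control ZT1 replicate 1 or 2 gave 46 or 43 such genes, control ZT13 replicate 2 or 3 gave 14 or 8, S714G ZT1 replicate 1, 2 or 3 gave 3, 2 or 5, and S714G ZT13 replicate 1, 2 or 3 gave 5, 3 or 4.

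Kept genes numbered 135, of which 70 were higher and 65 lower at ZT13 in both genotypes. In 84 the 95% interval of the interaction lay within a factor 2 either way. With the slide block 1 of the 135 met the rule for kept genes, and none of the 84 met the narrower rule. Ccn2, a matrix growth factor, read -0.05, 0.45 and 0.19 and then 1.58, 1.56 and 2.02 in control, and -0.21, -0.28 and 0.43 and then 1.11, 1.56 and 1.52 in S714G, an interaction of -0.11 (95% interval -0.82 to 0.61). Clec14a, a lectin of endothelial cells, went from 0.84, 0.69 and 0.59 to -1.12, -1.22 and -0.53 in control and from 0.51, 0.38 and 0.70 to -0.70, -0.60 and -1.0 in S714G, an interaction of 0.36 (-0.25 to 0.97). Mrnip fell by 1.66 and by 1.51, and Cd55b by 1.46 and by 1.37, in control and S714G. Mfap4, a microfibril protein, met the rule with changes of -1.67 and -1.86, but after outlier spots were dropped it rests on 1 value in control ZT13 and in S714G ZT1, so neither change has a replicate check in that arm. Leaving out control ZT1 replicate 1 gave 247 kept genes, and leaving out S714G ZT1 replicate 1, 2 or 3 gave 36, 37 or 49 and S714G ZT13 replicate 1, 2 or 3 gave 48, 52 or 30. Of those kept within a factor 2, leaving out control ZT1 replicate 1 or 2 gave 185 or 129, and leaving out any S714G array gave 15 to 27.

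**Figure D4:**
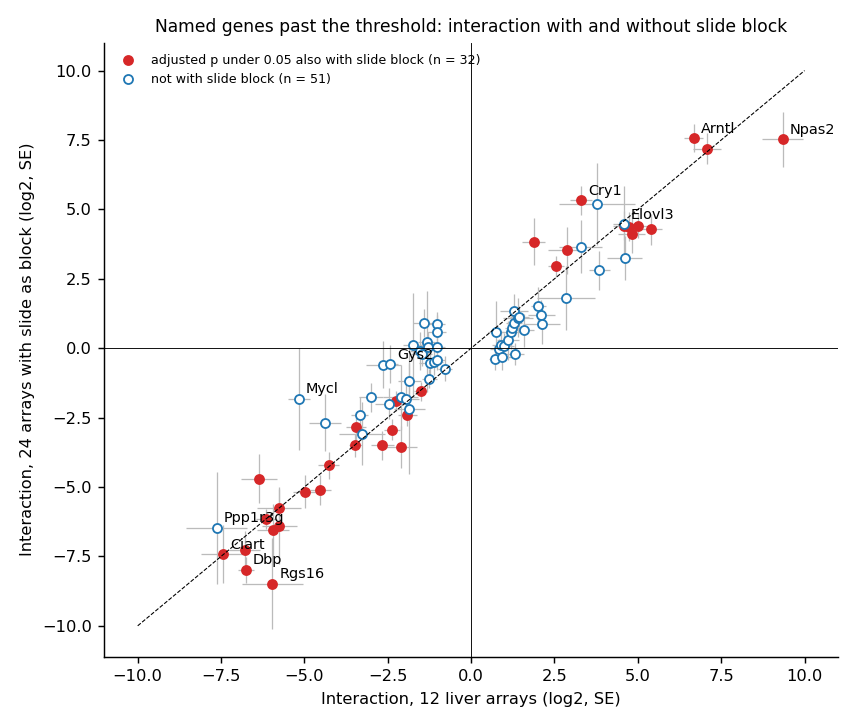
Each point is a named gene past the threshold, with its interaction from 12 liver arrays (x axis, log2) and from 24 arrays with slide as a block (y axis, log2), both with standard errors, and the dashed line marks equality. Arntl, Npas2, Dbp and Ciart lie far from 0 on both axes, while Mycl and Gys2 move towards 0 with the block.

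In the gene lists below, a member counts as above or below 0 only where its interaction passed the threshold, which 19.8% of all genes did above 0 and 12.2% below. Of 20 glucose metabolism genes measured, 9 were below 0 (45.0%) and 1 above (5%), with a median of -0.82 against 0.22 over all genes. With the block 2 passed, both below 0. The 2 are Pfkfb3 and Foxo1, the insulin-regulated transcription factor, at -1.92 with the block. Gys2, liver glycogen synthase, rose from 2.96, 3.45 and 3.42 to 5.53, 5.88 and 5.79 in control and read 4.61, 4.65 and 4.63 and then 4.61, 4.82 and 4.56 in S714G. Its interaction was -2.42 (adjusted p = 1.03e-04), and -0.57 with the block (adjusted p = 0.83). Ppp1r3c, another glycogen-targeting subunit, had 2.01 and 1.51 with the block (adjusted p = 0.40).

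Fatty acid and triglyceride synthesis had 8 of 21 members below 0 (38.1%, beside 12.2% of all genes) and 1 above (4.76%, beside 19.8%), with a median of -0.36. Lpin1 alone passed with the block. Elovl3, Lpin1 and Lpin2 (by its brightest probe) were reversed and the others included Fasn at -3.35, fatty acid synthase, which was -0.63 with the block. Fatty acid oxidation and PPAR alpha targets had 3 of 19 below 0 (15.8%) and 1 above (5.26%), with the share below near that of all genes. Cpt1a, the mitochondrial entry step, rose by 1.18 in control and changed by -0.33 in S714G, an interaction of -1.51 (adjusted p = 5.37e-04; -1.55 with the block), and Pdk4 is described above. Ehhadh had -1.04, and 0.88 with the block. Cholesterol synthesis had 3 of 23 above (13%) and 2 below 0 (8.70%), and none passed with the block.

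Bile acid genes had 1 of 17 above (5.88%, beside 19.8% of all genes) and 3 below 0 (17.6%, beside 12.2%). Cyp7a1, the rate-limiting enzyme of bile acid synthesis, rose by 2.03 in control and changed by 0.18 in S714G, an interaction of -1.85 (adjusted p = 0.014) and -2.19 with the block (SE 2.32, adjusted p = 0.80). The sterol exporters Abcg5 and Abcg8 had -2.12 and -3.27, and -1.77 and -3.07 with the block (adjusted p = 0.62 and 0.24, limma). None of the 17 bile acid genes passed with the block. NAD salvage genes had 2 of 9 above (22.2%) and 4 below 0 (44.4%). Nampt, its rate-limiting enzyme, rose by 2.30 in control and changed by 0.05 in S714G, with -2.25 (adjusted p = 5.37e-04) and -1.89 with the block (adjusted p = 0.013), and 1 S714G ZT1 array had no usable spot. Of 18 xenobiotic genes 2 passed, Alas1 and Sult1d1, both below 0 (11.1%, near the share of all genes), and the list's median was -0.07.

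Glucocorticoid-responsive genes had 2 of 16 above (12.5%, beside 19.8% of all genes) and 4 below 0 (25.0%, beside 12.2%). Zbtb16, a transcription factor, had -2.10 and -3.55 with the block (adjusted p = 0.023). Wee1, a cell cycle kinase under clock control, went from -2.11, -2.38 and -1.99 to 1.60, 0.99 and 1.15 in control and from 0.05, -0.05 and 0.57 to -0.79, -0.41 and -0.83 in S714G, an interaction of -4.27 (-4.21 with the block). The insulin and feeding list had 2 of 12 above and 2 below 0, with Pik3r1 at -2.63 and -0.59 with the block. Unfolded protein response genes had 5 of 20 above and 3 below 0, with Creld2, an endoplasmic reticulum protein, at 2.10 and 1.21 with the block (adjusted p = 0.35). Heat shock genes had 4 of 16 above and 1 below 0, immediate early genes 3 of 13 and 1, ribosome biogenesis 2 of 20 and 4, oxidative phosphorylation 1 of 20 and 1, acute phase 4 of 15 and 3, interferon response 1 of 14 and 2, and proliferation 0 of 12 and 1. The shares in these 7 lists were 0% to 26.7% above and 5% to 20% below 0. In them and the unfolded protein response none passed with the block.

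**Figure D5:**
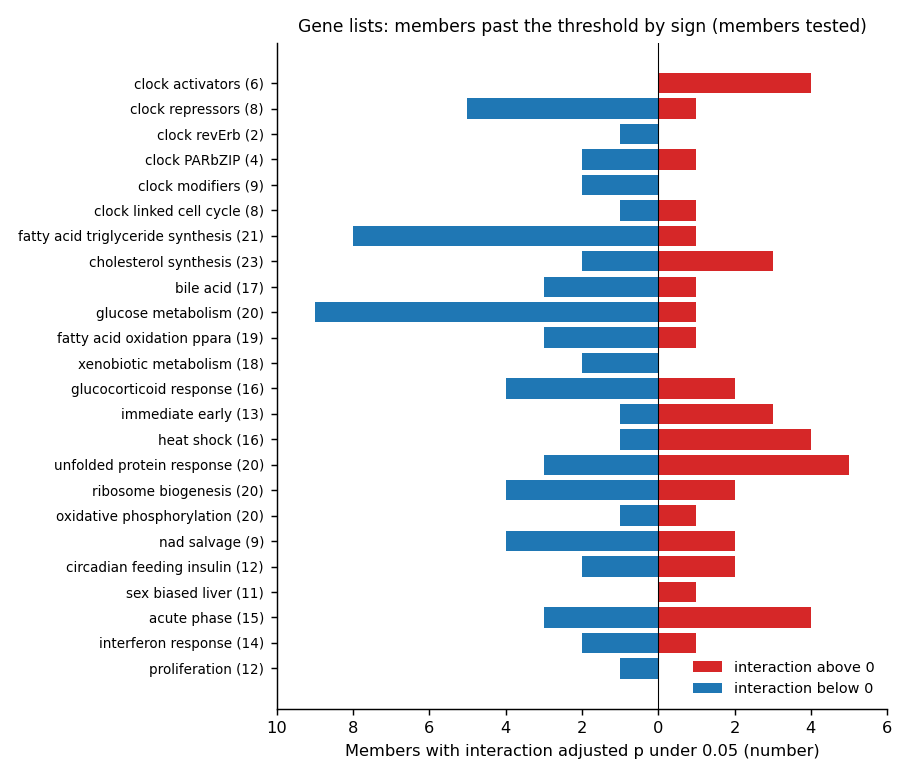
Bars count the members of each gene list with an interaction past the threshold, above 0 to the right and below 0 to the left, with the number of members tested in brackets. Glucose metabolism has 9 of 20 members to the left and 1 to the right, and clock activators have 4 of 6 to the right.

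Markers of other cell types passed in some lists, beside 19.8% of all genes above 0 and 12.2% below. Of 6 cholangiocyte markers, 4 were above 0 (66.7%) and none below, with a median of 1.60, and Sox9 passed with the block (2.36). Their summed level was 6.25 to 10.2 in control ZT1, 7.03 to 9.73 in control ZT13, 6.91 to 11.2 in S714G ZT1 and 9.91 to 17.8 in S714G ZT13. Of 8 lymphocyte markers 4 were above 0 (50%), with sums of 5.26 to 6.62, 3.15 to 4.16, 4.69 to 5.24 and 3.75 to 5.12 in the same order, while Cd8a, Ms4a1 and Klrb1c were among those that did not enter the fit. Of 6 neutrophil markers 2 were above 0 (33.3%), with sums of 4.08 to 4.78, 3.08 to 3.66, 3.86 to 6.36 and 3.50 to 4.77, and Ngp, Camp and Ltf did not enter. Of 3 pancreas markers 2 were above and 1 below 0, with sums of 16.8 to 20.0, 10.8 to 14, 9.67 to 10.6 and 10.6 to 13.8, and 6 did not enter.

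Of 8 adipocyte markers 1 was above 0 (12.5%) and 2 below (25.0%), with sums of 9.45 to 11.4, 10.8 to 11.0, 14.3 to 16.1 and 11.1 to 14.2, so that the S714G ZT1 arrays lay above all others. Cidec, a lipid droplet protein, rose by 2.59 in control and changed by -0.39 in S714G, an interaction of -2.99 (adjusted p = 0.0043) and -3.63 with the block (adjusted p = 0.018). Of 14 macrophage markers 1 was above 0 and 2 below, with sums of 143.3 to 165.5, 98.5 to 104.5, 115.6 to 131.6 and 82.7 to 110.6. Of 11 stellate and fibroblast markers 2 were below 0, Reln at -1.62 and Rgs5, a pericyte marker, at -2.22, which was reversed (-0.69 with the block, adjusted p = 0.72). Their sums of 92.4 to 110.5, 60.2 to 95.5, 72.6 to 97.6 and 67.8 to 106.2 overlapped between groups. Of 11 endothelial and 6 erythroid markers 1 each was above 0, and of 5 mesothelial and muscle markers none passed. Hepatocyte markers had none of 12 past the threshold and no marker of the lists was at 0, since levels are intensities. Their part in the results was not tested.

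Motif matches in promoters were counted by class. Of the tested genes 11759 have a promoter window, and 9.13% of these hold CACGTG within 250 bases. The share was 16.2% of 80 reversed genes, 21.7% of 46 that were higher and 8.82% of 34 that were lower at ZT13 in control, 9.71% of 3234 flattened, 10.8% of 74 gained and 3.33% of 90 kept genes. A D-box was in 0.901% of all and in 1 of 80 reversed genes, and a ROR element in 0.221% of all and 0 of 80. Over all 32851 RefSeq windows the shares were 6.02%, 0.932% and 0.332%. Among the named genes, 75 of 101 have a window and 11 hold a match, Ciart, Per3, Per1 and Cry1 above and also Tef, Pfkfb3 and Lpin2 among them. These shares are descriptions without a test.

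The interaction was compared with the same contrast in adipose tissue. Of the 29 clock genes the difference between tissues passed for 3, Dbp, Usp2 and Nr1d1, beside 1.03% of all genes, and for Dbp and Usp2 with the slide block, beside 0.307% of all genes. Dbp had -6.76 in liver and -4.41 in adipose tissue, a difference of -2.35 (adjusted p = 0.043; 0.020 with the slide block, 0.060 with liver and adipose arrays of one number as a replicate block). Usp2 had -6.79 and -1.33, a difference of -5.46 (adjusted p = 1.72e-04). Nr1d1, at -0.72 in liver, had -3.22 in adipose tissue, and the difference of 2.50 (adjusted p = 0.022) did not pass with the block (adjusted p = 0.16). Arntl had 6.68 and 7.70 (difference -1.03, SE 0.54, adjusted p = 0.36), Nr1d2 -4.53 and -4.54 (adjusted p = 0.996), and Nfil3 3.84 and 3.70. The genes named for the largest liver interactions were chosen by the liver value, so their values are given side by side without a test. Loxl4 had 7.08 in liver and -1.59 in adipose tissue, Lpin1 -6.15 and -0.75, Dnmt3b 4.59 and -0.16, and Pdk4 4.82 and -0.17.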

How the data were processed

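Liver RNA of 12 samples was compared, with 12 adipose samples in an alternative. The deposited files are scanner output of Agilent Feature Extraction 10.7.3.1, per the file headers: intensities per spot, from which the authors' software had already subtracted background, and other columns of 0 or 1 flags. The authors' deposited value table (log2 scale, settled from its values) served as an alternative. The log2 processed signal was set relative to each array's 75th percentile. Control spots and outlier spots (0.238% to 0.685% of an array) were left out, and spots of a probe averaged. Probes entered the fit if, in any group, all 3 arrays read well above background. The brightest probe stood for its gene (21844 genes). Probes were named from RefSeq accessions (26863), a current symbol (3752), a synonym (623) or the files (24443). Probe positions come from the array design (mm9). An annotation of exons and UTRs was not used here.

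limma 3.58.1 in R 4.3.3 was fitted to the 4 group means (lmFit, eBayes) with Benjamini-Hochberg adjustment over all genes at 0.05. The fit was tested on simulated data. It called 14 of 100 interactions planted at 1 log2, 69 of 100 planted at 2 log2, and 2 of 21402 genes with none planted. Most interactions planted at 1 log2 were thus missed. Far fewer genes differed in the simulation than the 31.9% that passed in the data, which makes its adjusted threshold stricter, and it held no slide effect. These shares are therefore not the sensitivity of the fit to the data. A missed threshold is still not read as no interaction. The number of arrays limits the precision. Bounds for groups not well above background on any array use the lowest signal well above background on each array. Named genes are all clock genes, the 10 largest interactions per direction, 5 per class by size of the daily change, and up to 3 members per list. Members and lists were chosen with earlier results of these data known. Same-numbered replicates did not vary together (correlations of -0.11 to 0.14 over 18 pairs, 3 above 0.1), so numbers were not used as pairs. The same held for liver and adipose arrays of one genotype, time and number (-0.30 to 0.11 over 12 pairs, 1 above 0.1). Liver and adipose arrays of one genotype and time but other numbers gave -0.50 to 0.57 over 24 pairs, 5 above 0.1. Both extremes were pairs of control ZT1 arrays on slide 1, so arrays of that group shared some variation. Its cause was not tested. Alternatives were another background correction, normalization, filter, probe rule, slide or replicate block, variance trend, and leaving out each array. A few genes within these rules are not reported here.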

Additional observations from a re-analysis of the deposited data

Results flagged for a closer look

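The count of 6975 genes is a difference between times in the genotype effect in liver, tested by the interaction itself, and it falls to 295 with slide as a block.

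For 2 clock genes the interaction differed between liver and adipose tissue, by a test of the difference both without and with the slide block. Dbp missed the threshold with liver and adipose arrays of one number as a replicate block and no slide block. The liver minus adipose difference (log2, limma over 24 arrays) was -2.35 for Dbp (adjusted p = 0.043) and -5.46 for Usp2 (adjusted p = 1.72e-04). Both genes had interactions of the same sign in both tissues, -6.76 in liver and -4.41 in adipose tissue for Dbp, and -6.79 and -1.33 for Usp2. Groups of 3 arrays were too small for a test of single outlying arrays.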

How the results depend on the processing

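The interaction count moved beyond 1.5 times under the fits over 24 arrays, to 295 with slide as a fixed block and to 3339 without it (124 and 1819 positive, 171 and 1520 negative). The control change count moved to 162 with the slide block. The counts of the S714G change and of the classes moved in more settings. With all probes and no filter they were 71 for the S714G change, 33 reversed, 15 gained, 2 same direction, 21 kept and 7 kept within a factor 2, and with no filter and the brightest probe 89, 37, 16, 3, 29 and 15. With slide as a random block (correlation -0.14) they were 1909, 457, 388, 180, 586 and 433. With the fixed slide block they were 70, 9, 22, 1, 13 and 0, with 81 flattened, and over 24 arrays without it 261, 72, 69, 6, 81 and 42, with 2961 flattened. Requiring a change of at least 1 log2 gave 70 reversed, 5 same direction, 49 kept and 22 kept within a factor 2. The cause was not tested.

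With the replicate number as a block, 6873 genes passed (4305 positive, 2568 negative), the S714G change count was 284, and gained, same direction and kept within a factor 2 were 81, 8 and 54. Same-numbered replicates did not vary together, which does not show whether liver and adipose arrays of one number share an animal. The liver minus adipose difference passed for 226 genes over 24 arrays and for 67 with the slide block. With liver and adipose arrays of one number as a random replicate block, chosen after seeing the data (correlation -0.073), it passed for 161, where Dbp had an adjusted p of 0.060, and for 51 with the slide block as well, where Dbp and Usp2 passed.

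Leaving out single arrays gave 4896 to 9538 interactions (2876 to 5905 positive, 2020 to 3633 negative), 9308 to 12793 control and 96 to 914 S714G changes, and 37 to 213 reversed, 4458 to 8578 flattened, 22 to 259 gained, 2 to 46 same direction, 30 to 247 kept and 15 to 185 kept within a factor 2. A group left with 2 arrays has less power, but some counts rose. The interactions rose to 9538 without control ZT1 replicate 2, and the S714G changes to 914 without control ZT1 replicate 1. The cause was not tested.

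For the 101 named genes, 2313 of 2501 values stayed on their side of the threshold with the same sign, 165 fell below it, 12 passed it anew and 11 changed sign. All 11 changed sign with the fixed slide block, to 0.029 for Fbxl21, -0.33 for Cdkn1a, 0.88 for Ehhadh, 0.23 for Sult1d1, 0.060 for Errfi1, -0.22 for Cirbp, 0.90 for Hsp90b1, -0.40 for Sirt6, -0.046 for Igf1, 0.12 for Saa4 and 0.59 for Mx2. The genotype difference at ZT13 passed for 662 genes over the 12 arrays and 915 within slide 3. Signal over background limits Npas2, Per3, Ciart, Cry1, Tmem171 and Mycl to bounds.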
